A study of Mus musculus with 6 samples.

Results

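The regions here were listed as enriched for mSin3A in CD8 T cells without Tcf1 and Lef1, but in neither wild-type (WT) library. They number 2111 of 23510 merged regions. Chromatin immunoprecipitation with an antibody against mSin3A and sequencing (ChIP-seq) had been done on splenic CD8+ T cells sorted for high surface T cell receptor beta. Their donors were WT mice and mice labelled Tcf1-/-Lef1-/-, called deficient here, in which Cre driven from Cd4 sequences served to delete both factors. Each genotype had 1 ChIP library in condition 1, 1 in condition 2 and 1 input library, and what sets condition 1 apart from condition 2 is not in the labels. The sources used here give no ages, sexes or animal numbers, and the input libraries were not analysed here.

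The enriched intervals (islands) of the 4 deposited ChIP lists were merged where they shared a base or touched. A merged region was kept when it held an island of both deficient lists and none of either WT list, so the members were chosen by the presence and absence of calls in these 4 lists. All values below are therefore a description of 4 libraries, with no test, and nothing about the genotypes rests on more than 1 library per condition. The members made up 8.98% of all merged regions, a share fixed by the rule from which nothing is read. The opposite pattern, both WT lists and neither deficient list, was met in 685 regions (2.91%).

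mSin3A has no DNA-binding domain of its own. It is the scaffold of a co-repressor complex that carries histone deacetylases, and it is brought to chromatin by sequence-specific factors that bind its paired amphipathic helix domains. Tcf1 and Lef1 are HMG-box factors of the T cell lineage that can repress as well as activate, and in CD8 T cells they are known for keeping genes of the helper lineage silent. Cre driven from Cd4 sequences is known to act from the thymocyte stage at which Cd4 is switched on, so that earlier stages still have both factors. Deletion in the sorted cells was not checked here.

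The lists were close in island reads, at 1792952 to 1917097, but not in length, at 11151 to 15954 islands. The lowest island held 16 to 23 reads. The deposited value of each island was read as its number of ChIP reads, and total sequencing depth is not given. Positions are on the mouse build mm9, and no gene or sequence was assigned, because the annotation at hand is on another build.

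The deficient-only regions were near the typical merged region in width and below the regions called in all 4 libraries in reads. Together they spanned 10.03 Mb. Their median width was 4199 bp, with quartiles of 2799 and 5799 bp, against 7599 bp for the 5637 regions called in all 4 libraries and 4999 bp for the WT-only regions. The median was 3999 bp over all merged regions and 2599 bp for regions listed in 1 deficient library alone. Merged width can grow with the number of lists that meet in a region, so these widths are not like for like. They took 2161 islands of the condition 1 deficient list (13.5%) and 2145 islands of the condition 2 list (15.8%). Of the island reads they held 10.5% in condition 1 and 11.7% in condition 2.

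Read numbers per region ran from 23 to 9074 in deficient condition 1, with a median of 78, and from 26 to 9080 in deficient condition 2, with a median of 87. The middle of this range was narrow, with quartiles of 54 and 110 reads in condition 1 and 63 and 123 reads in condition 2. In the same libraries the regions called in all 4 had medians of 155 and 164 reads. Reads per region are sums over its islands, and these regions held more islands each. In condition 1 there were 7056 islands in the 5637 regions called in all 4, against 2161 islands in the 2111 members. Per kb of called length the deficient-only regions had medians of 25.8 reads in condition 1 and 25.4 reads in condition 2. That level lay between the regions listed in 1 deficient library alone, at 20.4 and 20.01 reads per kb, and the regions called in all 4, at 33.3 and 32.7 reads per kb. The WT-only regions had 22.0 and 22.3 reads per kb in their own libraries.

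**Figure D1:**
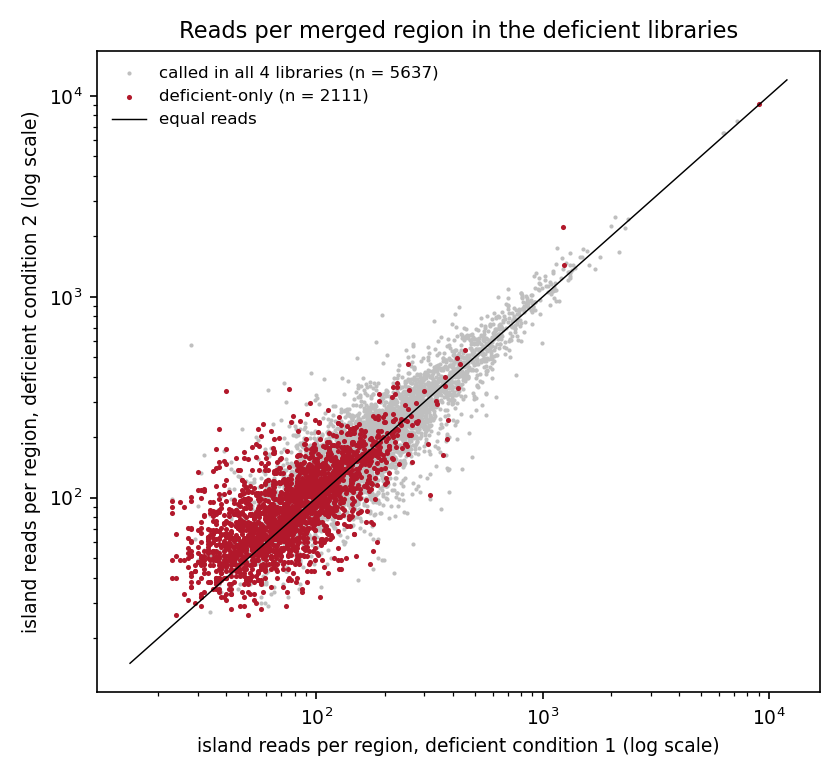
Island reads per merged region in deficient condition 1 (x axis) and deficient condition 2 (y axis), both on log scales; red points are the 2111 deficient-only regions, grey points the 5637 regions called in all 4 libraries, and the line marks equal reads. Most red points lie in the lower part of the grey cloud, around the medians of 78 and 87 reads, and 1 red point stands apart with 9074 and 9080 reads.

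Short members were denser than long ones. The lowest island held 18 reads in the condition 1 deficient list and 23 in the condition 2 list. A very short island therefore had to be dense to be listed, which sets part of this order. The 212 members under 2 kb had medians of 37.4 and 37.7 reads per kb in conditions 1 and 2. The 50 members of 12 kb or more had 23.5 and 22.5 reads per kb, but medians of 226.5 and 253.5 reads. Width and isolation ran in opposite directions. The median distance to the nearest WT island was 34.9 kb for members under 2 kb and 5.7 kb for members of 12 kb or more.

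The share of regions without a WT island fell with the reads they held. Of the 9726 regions called in both deficient lists, 21.7% were in no WT list (Wilson 95% interval 20.9 to 22.5, counting error only). These regions were divided into 10 classes of nearly equal size by reads in the weaker deficient library. The share was 58.7% in the class of 18 to 51 reads and 18.5% in the class of 98 to 114 reads. In the class of 262 reads or more it was 1.34% (0.783 to 2.27), which is 13 regions. Reads in the deficient libraries belong to the contrast that chose the members, and a WT island can join several deficient islands into 1 region. This too is therefore a description.

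The same division of the 6919 regions called in both WT lists gave 9.90% without a deficient island. By class this share was 47.1% at 16 to 61 reads, 8.67% at 83 to 100 reads and 0.579% at 314 reads or more. At a minimum of 100 reads in both libraries, 533 of 5760 regions (9.25%) were deficient-only and 140 of 4877 (2.87%) were WT-only. At a minimum of 200 reads the counts were 50 of 1704 and 17 of 1661, and at 300 reads they were 11 of 750 and 4 of 746. The deficient-only share was above the WT-only share at each of these minimums. Beside this, the deficient lists were the longer ones. When the lists were shortened to an equal length of 11151 islands by reads, 1273 deficient-only regions were found, of which 1240 were identical to members. Among the stronger 50% of islands 755 were found, of which 461 were identical to members. Both filters also drop WT islands, which can turn a shared region into a deficient-only one. WT-only counts under these filters are not given here. Whether deficient-only regions outnumber WT-only regions in lists of equal length is therefore not shown by these counts.

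**Figure D2:**
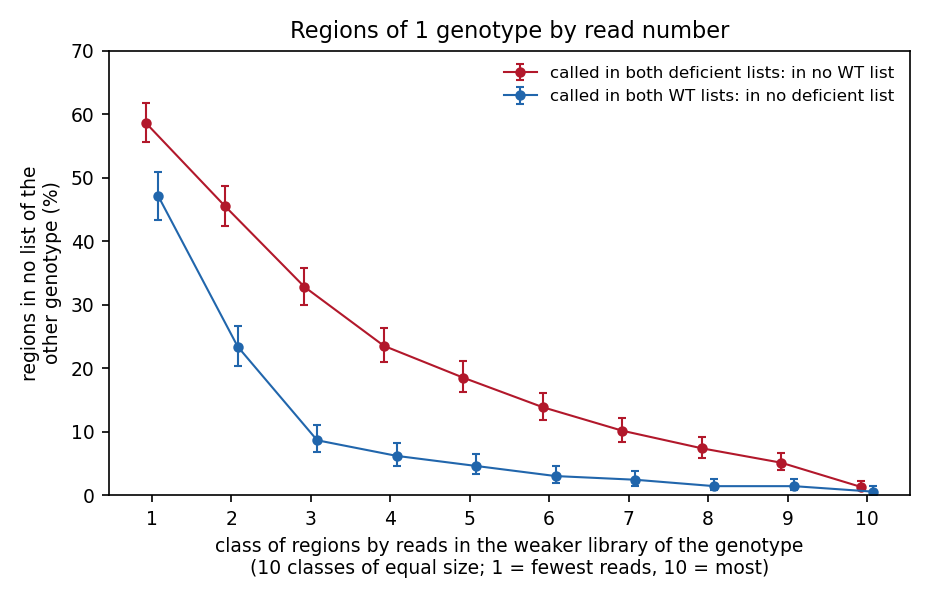
Share of regions in no list of the other genotype (y axis, %) by class of reads in the weaker library of the own genotype (x axis, 10 classes of equal size from fewest to most); red stands for regions called in both deficient lists, blue for regions called in both WT lists, and bars are Wilson 95% intervals for counting error. The red share goes from 58.7% to 1.34% and the blue share from 47.1% to 0.579%.

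Width showed the same order. Islands of the deficient lists alone merged into 10140 regions held by both. Of those under 2 kb, 36.1% met no WT island, of those from 4 to 6 kb 22.3%, and of those of 12 kb or more 4.92%.

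Members were set beside WT islands of the same width, within 200 bp and in the same condition, to show how far they stood above the weakest signal that was listed in WT. The median member island held 1.85 times the reads of the lowest such WT island in condition 1 and 1.81 times in condition 2. Against the median WT island of that width the ratios were 0.962 and 0.874. At least 1.5 times that median was reached by 213 of 2157 islands in condition 1 (9.87%) and 93 of 2142 in condition 2 (4.34%). Deficient islands in regions called in all 4 libraries had median ratios of 1.23 and 1.15. Among deficient-only islands, 984 (45.6%) in condition 1 and 689 (32.2%) in condition 2 reached the median WT island of their width. In unscaled reads, the typical deficient-only island was thus close to that WT median in condition 1 and below it in condition 2. Reads were not scaled between libraries for this.

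The deficient libraries drew the members with different bounds. In 2036 members (96.4%) each list contributed 1 island. The bounds were identical in 74 members, the condition 1 island lay inside the condition 2 island in 786, the reverse held in 445, and 806 overlapped in part. In 2 of these 806 the islands only touched. The median share of called bases that both lists covered was 59.3%, and it was at least 50% in 1325 members.

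By these counts the conditions differed more in called length than in reads per kb of called length. Condition 2 held more reads in 1333 members and fewer in 740, with a median ratio of 1.12. Called length had a median ratio of 1.11, and reads per kb a median ratio of 0.995. The 2-fold mark was passed in 158 members toward condition 2 and in 34 toward condition 1 by reads, but in 13 and 25 members by reads per kb. In the regions called in all 4 libraries the corresponding median ratios for the deficient libraries were 1.05 for reads and 0.996 for reads per kb. For reads per kb of WT-only regions, between the WT libraries, it was 1.02. Reads per kb cover called bases only, so the calling itself can hold this ratio near 1.

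The largest ratio of condition 2 to condition 1 reads, among members with at least 50 reads in each library, was that of chr7:108455601-108471799, with 76 reads in condition 1 and 349 in condition 2 (ratio 4.59, exact 95% interval 3.57 to 5.97, counting error only). Its called length was 1599 and 16199 bp, and its density 47.5 and 21.5 reads per kb. The region chr2:122476801-122486399 held 55 and 221 reads (ratio 4.02, 2.98 to 5.50). Next came chr2:128245201-128255999, with 58 and 233 reads. Each of these pairs had a short condition 1 island within a longer condition 2 island. The last of the group were chr19:34657001-34665799, with 57 and 203 reads, and chr4:133915201-133923999, with 63 and 216 reads. Of these 5, the chromosome 4 region kept its density most closely, at 24.2 and 24.5 reads per kb.

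In the other direction, chr16:92864601-92875799 held 177 reads in condition 1 and 54 in condition 2 (ratio 0.305, 0.221 to 0.416). Its density was 19.2 and 18.0 reads per kb, so that the gap lay in called lengths of 9199 and 2999 bp. The region chr1:129108201-129117999 held 186 and 60 reads, and chr14:26333801-26348199 held 319 and 103 reads. Chromosome 1 gave the remaining pair, chr1:134208001-134216199 with 150 and 51 reads and chr1:74861601-74867199 with 135 and 50 reads. All 5 were shorter in condition 2, with density ratios from 0.936 to 1.73.

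Very dense members formed a small group of mostly narrow regions. At least 50 reads per kb in both deficient libraries were found in 33 members, of median width 1399 bp, and at least 100 reads per kb in 8. The median reads of the 33 were 96 in condition 1 and 87 in condition 2, near the 78 and 87 of all members. The densest was chr17:39979801-39985999, with 9074 and 9080 reads, or 1513 and 1465 reads per kb, and no WT island within 1.08 Mb. Its islands held the most reads of any island in each deficient list, so it is no typical member. The region chr11:108872801-108873999 held 433 and 464 reads in 1199 bp, or 542 and 387 reads per kb. The chr17 and chr11 regions exceeded the median density of all members many times over. Background at the dense members was not analysed here, and whether they lie in repeated sequence was not tested. Their read numbers are therefore not read as strong mSin3A binding.

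Among members of at least 100 reads in both libraries the next in density were small as well. In only 399 bp, chr12:79451801-79452199 held 125 and 133 reads, and both lists gave it the same bounds. The region chr16:18532601-18533599 held 126 and 137 reads in 999 bp. In chr5:137632601-137633999 the lists again gave identical bounds, with 191 and 166 reads in 1399 bp. The agreement of the 2 libraries at these places was closer than in the typical member. The region chr18:3002601-3013599 was wider, with 1242 and 1442 reads, or 132 and 131 reads per kb. Densities below 100 were reached by chr19:61273801-61276599, at 90.5 and 92.7 reads per kb, and by chr5:15050401-15057199, at 80.8 and 72.5 reads per kb.

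The widest member was chr1:90168001-90207399, which spanned 39399 bp. It held 1234 reads over 21599 bp in condition 1 and 2227 reads over 39399 bp in condition 2, at 57.1 and 56.5 reads per kb. It was both wide and dense, whereas the other wide members named here had 19.5 to 26.5 reads per kb. The region chr1:87530801-87555199 held 253 and 461 reads, but the 2 lists shared only 12.3% of its called bases. In chr7:149554001-149575799, with 455 and 546 reads, they shared 81.6%.

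Some wide members were uneven between the deficient libraries. The region chr2:30535601-30552599 held 40 reads over 1599 bp in condition 1 and 341 reads over 16599 bp in condition 2, and a WT island lay 801 bp away. The region chr2:29510401-29528999 held more in condition 1, with 364 reads against 163 in condition 2, at 20.5 and 22.0 reads per kb. The other members of the group were more even. They were chr19:8991401-9011199 with 369 and 401 reads, chr8:72481401-72499399 with 215 and 317 reads, and chr11:69077001-69093799 with 226 and 204 reads. The chromosome 19 region lay 401 bp from a WT island.

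Most members were neither next to a WT island nor far from one. The median distance to the nearest WT island was 16.0 kb, with quartiles of 5.6 and 44.2 kb. A WT island lay within 1 kb of 97 members (4.59%), within 5 kb of 487 (23.1%) and within 50 kb of 1644 (77.9%). WT islands within 5 kb on both sides were found for 41 members (1.94%). The share within 5 kb fell to 12.7% when islands within 2 kb were joined and to 13.8% among the stronger 50% of islands. It rose to 44.2% when islands counted as shared only at 50% reciprocal overlap. Both joining and reciprocal overlap act on this share by their own rule. Joining within 2 kb merges members with a WT island that near, and 231 members (10.9%) had such an island. Reciprocal overlap kept all 2111 members and added regions that meet a WT island in part, which gave 2910.

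Regions of the other patterns lay at like distances, though not to like targets. WT-only regions were measured to the deficient lists, of 15954 and 13556 islands, which are longer than the WT lists, of 13397 and 11151. Of the WT-only regions, 25.7% had a deficient island within 5 kb and 79.7% within 50 kb, with a median of 14.4 kb. Of the 5507 regions listed in 1 deficient library alone, 21.2% had a WT island within 5 kb and 75.6% within 50 kb, with a median of 17.2 kb. Regions called in all 4 libraries were at a median of 53.2 kb from the deficient-only regions and 46.8 kb from the WT-only regions.

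**Figure D3:**
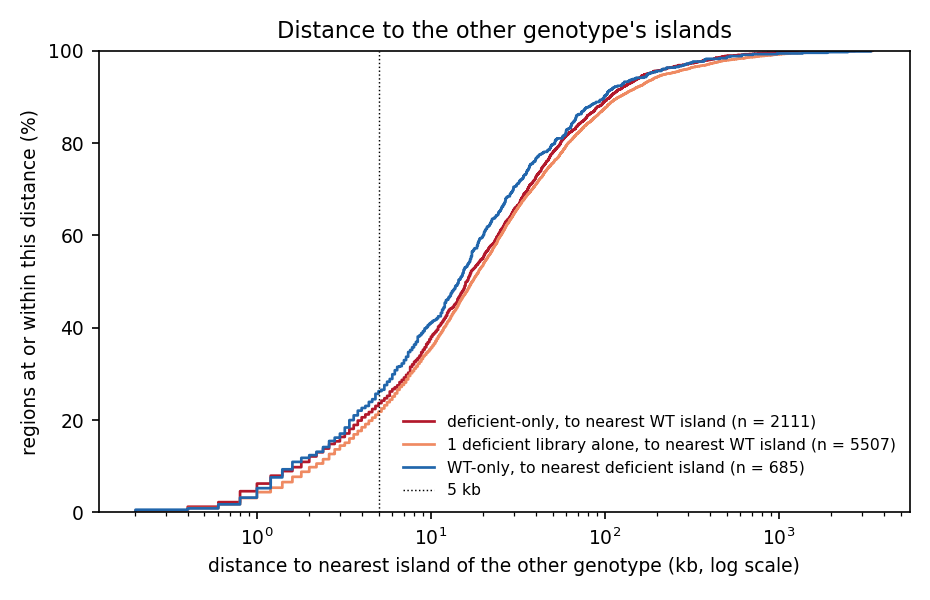
Cumulative share of regions (y axis, %) by distance to the nearest island of the other genotype (x axis, kb, log scale); red stands for deficient-only regions, orange for regions listed in 1 deficient library alone and blue for WT-only regions, and the dotted line marks 5 kb. The 3 curves run close together, with medians of 16.0, 17.2 and 14.4 kb, but the blue curve is measured to the longer deficient lists.

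At the edge of the rule, 9 members were separated from a WT island by 201 bp, which is 1 empty window of the 200 bp grid on which islands start. Those with most reads were chr10:74761201-74771599, with 264 and 231 reads, chr16:32159801-32167399, with 188 and 206 reads, and chr14:122448601-122454599, with 117 and 118 reads. Just outside the rule, 2 regions held a WT island that touched a deficient island without sharing a base. They were chr6:35201201-35205999, with 43 reads in WT condition 1 and 81 and 89 in the deficient libraries, and chr19:60935601-60942799, with 59 reads in WT condition 2 and 48 and 71 in the deficient libraries. A shared stretch of 199 bp kept out 5 more, among them chr14:56360601-56370799, with 66 reads in WT condition 1 and 188 and 171 in the deficient libraries. Only these examples from either side of the edge are given, and their deficient reads overlapped in range.

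Isolated members were few. No WT island was found within 100 kb of 230 members (10.9%) and within 1 Mb of 8. With at least 100 reads in both libraries, the farthest was chr5:15050401-15057199, at 1.82 Mb from a WT island, with 420 and 493 reads. The region chr12:58328401-58332799 followed at 1.39 Mb, with 106 and 132 reads, and then the very dense chromosome 17 region at 1.08 Mb. The chromosome 5 and 17 regions were also among the densest members, while the chromosome 12 region had an ordinary density of 33.1 and 30.0 reads per kb.

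Under the same minimum of 100 reads, chromosome 4 held the next isolated members. The region chr4:22282401-22286599 held 124 and 107 reads at 471 kb from a WT island, chr4:15190801-15194799 held 100 and 135 reads at 435 kb, and chr4:70194201-70198799 held 116 and 154 reads at 424 kb. The group ended with chr6:54110801-54118599, with 135 and 163 reads at 422 kb, and chr2:105234601-105245599, with 230 and 218 reads at 376 kb. All 5 had between 20.9 and 38.5 reads per kb in each deficient library. With fewer reads, both members of chromosome X that lay beyond 1 Mb were farther still. They were chrX:23269801-23270999, at 2.73 Mb with 55 and 43 reads, and chrX:151695801-151697999, at 2.34 Mb with 37 and 46 reads.

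The median distance to the nearest other member was 174 kb, and another member lay within 50 kb of 527 members. Joined within 50 kb, these gave 209 runs of 2, 31 runs of 3 and 4 runs of 4. In 143 of the 244 runs no WT island lay between the members. Over windows of 1 Mb, 1093 of the 2075 windows with any merged region held a member, and 6 windows held the highest number, 7. Those 6 windows were rich in regions, with 26 to 47 merged regions each. Whether members lie closer together than other regions was not tested. In 153 windows with a member there was no region called in all 4 libraries, and these windows held 191 members.

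One run of 4 lay on chromosome 1 without a WT island anywhere between its bounds, chr1:156991001-157072799. Its members held 98 and 73, 48 and 116, 81 and 75, and 106 and 93 reads in conditions 1 and 2. No deficient island other than these was listed there either. On chromosome 5 the run chr5:64987001-65080599 held 4 members with 37 and 142, 65 and 45, 50 and 72, and 423 and 353 reads. The first 3 stood free of WT islands, and 2 islands of WT condition 1, with 128 and 39 reads, lay between these and the last member.

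The run chr10:92584201-92643399 had 4 members around a region shared by all libraries. That shared region held 129 and 140 reads in WT conditions 1 and 2, and 3 members followed it, with 86 and 78, 34 and 84, and 47 and 49 reads. The first member, ahead of it, held 63 and 74 reads. Between that member and the shared region lay an island of WT condition 1 with 77 reads and an island of WT condition 2 with 35 reads. On chromosome 15 the run chr15:72851601-72958599 was interleaved with 7 WT islands. Its members held 48 and 168, 85 and 133, 40 and 77, and 36 and 83 reads, more in condition 2 each time. From the second of these a WT island was 201 bp away.

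Of the runs of 3, the one with most reads was chr2:130982201-131020599, with 158 and 153, 122 and 142, and 162 and 212 reads. Between the first and the next lay a region shared by all 4 libraries, with 54 and 78 reads in WT conditions 1 and 2, whose WT islands ended 601 bp short of the member. The 5 runs therefore ranged from a stretch listed in deficient cells alone to stretches in which members alternated with WT islands.

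**Figure D4:**
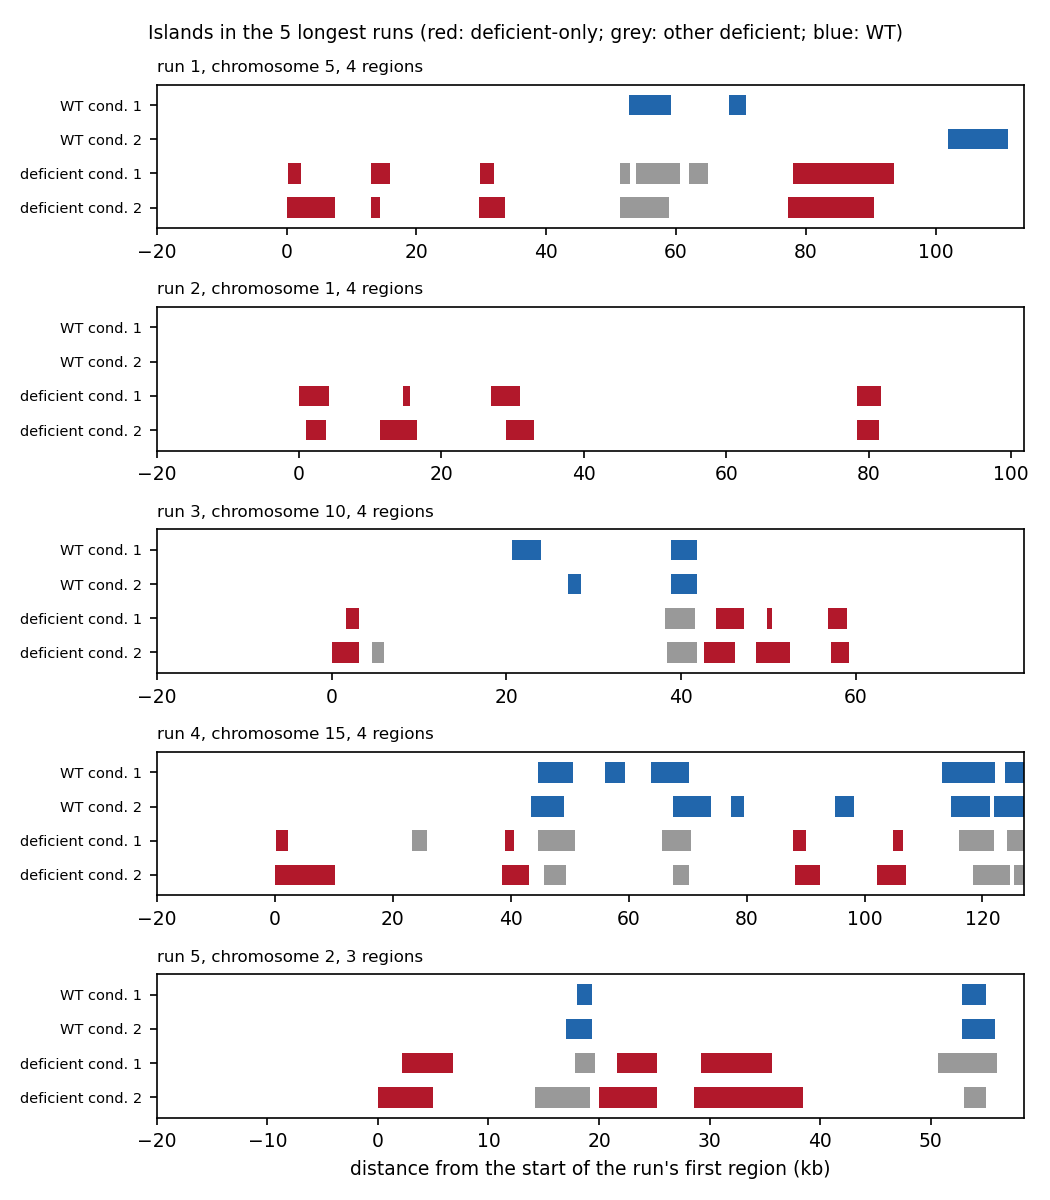
Map of the islands in the 5 longest runs, by distance from the start of the run's first member (x axis, kb) and by library (rows); red bars are islands of deficient-only regions, grey bars other deficient islands and blue bars WT islands. The run on chromosome 1 has no blue bar between its members, whereas 7 WT islands lie within the run on chromosome 15.

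Every chromosome that carried islands held members. Chromosome 11 had the most, 174, and chromosome X the fewest, 47. Of the regions called in both deficient lists, the deficient-only share was highest on chromosome X, at 28.8% of 163 regions, and on chromosome 1, at 27.9% of 602. It was lowest on chromosome 9, at 17.5% of 538 regions. The corresponding WT-only shares were 10.1% on chromosome X, 9.46% on chromosome 1 and 9.24% on chromosome 9, out of the regions called in both WT lists. Deficient-only regions per WT-only region ran from 1.90 on chromosome 4, with 116 and 61 regions, to 5.12 on chromosome 14, with 87 and 17 regions. Deficient-only regions were the more numerous on all 20 chromosomes, and differences between chromosomes were not tested.

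**Figure D5:**
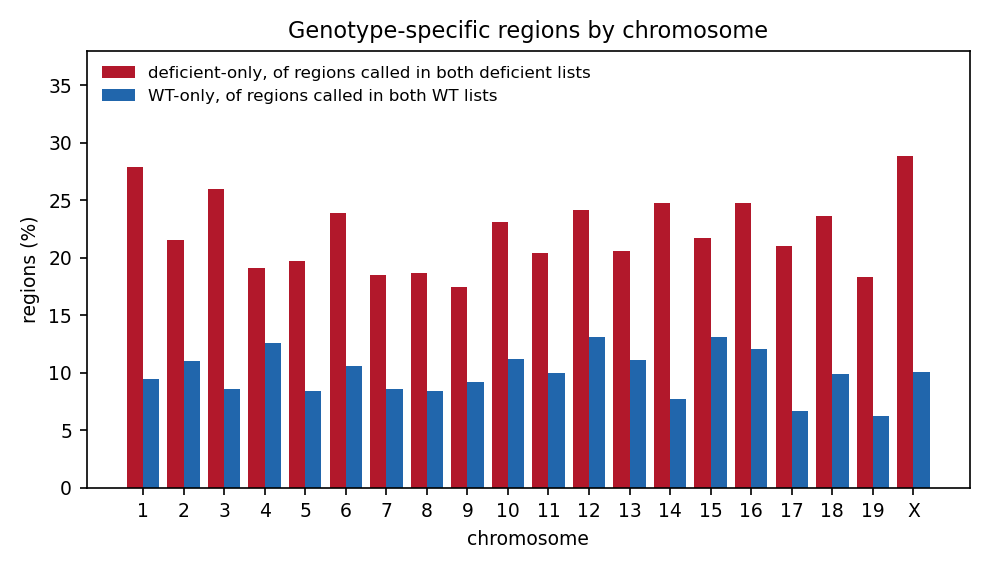
Share of genotype-specific regions by chromosome (x axis); red bars give deficient-only regions as a percentage of regions called in both deficient lists, and blue bars give WT-only regions as a percentage of regions called in both WT lists. Red bars run from 17.5% on chromosome 9 to 28.8% on chromosome X, and each is taller than the blue bar beside it.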

How the data were processed

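The submitters' processing notes name FastQC, Bowtie2 2.2.5, SICER 1.1, an island caller for broad enrichment, and the build mm9. How SICER was set and whether it used the inputs is not given in the sources used here. Each deposited list gives chromosome, start, end and a whole number, read as the ChIP read count of the island and not scaled by the authors. Starts were raised by 1; widths and called lengths are deposited end minus deposited start, and reads per kb use called length. Total depth per library is not known, only the reads within islands. The intervals cover counting error alone, and variation between libraries was not measured.

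Islands were merged at a distance of at most 1 bp. Regions named in the text were taken by fixed ranks: density, width, distance to WT islands, ratio of conditions, runs within 50 kb (ties by reads) and the edges of the rule. The windows of 1 Mb, the read minimums and the members beyond 1 Mb were added later. The members and lists were chosen with earlier results of these data known. Functions were tested on simulated data. Alternatives were other joining, overlap, read, length and chromosome filters, with tied reads taken in order of position. Genes, promoters and motifs were not used here, because the annotation is on GRCm38. Python 3.11.15, numpy 2.4.6, pandas 2.3.3 and scipy 1.17.1 were used.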

Additional observations from a re-analysis of the deposited data

How the results depend on the processing

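The number of deficient-only regions stayed within 1.5 times of 2111 under 6 of 10 settings. Of these, autosomes only (2064), no WT island within 5 kb (1624) and leaving out dense regions (2103) merely took members away. Reciprocal overlap (2910) kept all members and added others. Such settings say little on how stable the number is. The number was 1273 with lists of equal length and 755 in the upper 50% of each list, of which 461 were identical to reported ones. It was 6723 by condition 1 only and 5568 by condition 2 only, and these 2 settings ask for fewer calls. Joining within 2 kb gave 1847 regions, of which 1712 were identical to reported ones. Median width, 4199 bp, became 4299 bp at 50% reciprocal overlap, 6199 bp in the upper 50% and 4999 bp with lists of equal length. The share with a WT island within 5 kb, 23.1%, became 12.7% with joining, 44.2% at reciprocal overlap and 13.8% in the upper 50%. The share with 1 island in each deficient list, 96.4%, became 91.7%, 95.3% and 97.7%, respectively. The median ratio of reads between conditions, 1.12, became 1.07 with lists of equal length. Apart from what the settings themselves leave out, join or add, the cause was not tested. Leaving out the regions of at least 100 reads per kb, chosen after seeing the data, left 2103 regions and moved none of these values beyond its interval. Shares over transcription starts and motifs were not run, since no mm9 genome or annotation was used here. No paired analysis was possible because the deficient-only regions have no reads in either WT list, and no result here comes from a test. Reads below the listing threshold of a WT library are not known, which limits each comparison to calls.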
